A study of Vigna radiata with 42 samples.

Results

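Among 28740 gene IDs measured in mung bean leaves, 293 were lower after 48 h of salt in seedlings that had met salt before. The comparison was with seedlings meeting salt for the first time. At 0 and at 24 h the treatments differed by no more than 0.5 on the log2 scale in these genes. The genes were chosen from the measured values. Expression was compared as log2(value + 1), averaged over the 3 libraries of a group, and the difference was the pre-conditioned mean (T1) minus the direct-salt mean (T2). A gene was a member if this difference was -0.8 or lower at 48 h and between -0.5 and 0.5 at 0 and at 24 h, and if the highest T1 library at 48 h was below the lowest T2 library. The differences at 0, 24 and 48 h, and the changes within a treatment that end at 48 h, are therefore descriptions and carry no test.

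Salt reaches a plant in overlapping phases: roots first lose access to water, and sodium and chloride then build up in the shoot. Leaves adjust transcripts for water balance, ion transport, growth, photosynthesis and protection against oxidants, and many of these transcripts also follow the day. A plant that has met a mild stress can answer the next one earlier, more strongly or more weakly, which is called priming or stress memory. The deposited table gives gene IDs without names, and the reference gene list holds none of these IDs, so no role is given to any gene here.

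The plants were Vigna radiata cultivar Weilv 9, grown in hydroponic nutrient solution with 16 h of light and 8 h of dark, and the first fully expanded true leaf was taken. T1 seedlings were kept in 100 mM NaCl for 24 h, recovered for 48 h without salt and then met the final 100 mM NaCl; T2 seedlings went from salt-free solution directly into 100 mM NaCl. The final salt was followed from its start (0 h) over 1, 3 and 6 h to 12, 24 and finally 48 h, with 3 libraries in each of 14 groups. T1 0 h was thus a recovered leaf and T2 0 h a leaf that had met no salt. All later groups were in salt, so a change from 0 h joins salt with plant age. At 1 to 12 h it also joins the hour of the day, whereas 24 and 48 h are whole days after 0 h. In whole leaves, fewer cells of a type and less RNA per cell cannot be told apart.

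Relative depth of the libraries, read from the steps between low values, lay between 0.786 and 1.57 of the median, and 17235 to 18913 genes reached a value of 1. In 6 libraries the mean r with another group was above that with their own, and these include all 3 libraries of T1 0 h. T1 0 h replicate 2 had a mean r of 0.923 with its own group and of 0.970 with T2 0 h. Replicates 1 and 3 of T1 0 h had 0.954 and 0.953 with their own group, which includes replicate 2, and 0.956 and 0.961 with T1 1 h. The others were T1 3 h replicate 3 (0.979 with its own group and with T2 3 h, which was higher in the next digit), T1 6 h replicate 3 (0.977, and 0.984 with T2 6 h) and T2 1 h replicate 2 (0.963, and 0.968 with T1 1 h). Signal from plastid IDs made up 5.38% in T1 24 h replicate 1, 2.50% in T2 24 h replicate 2 and 2.08% in T2 12 h replicate 3, against 0.788% or less elsewhere. None of the 293 members has an organelle ID. Some results are given again without T1 0 h replicate 2 or without the 3 libraries high in plastid signal. For the other libraries, mostly the range of counts with 1 library left out is given. A result given once is not thereby shown to be unchanged without them.

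Of all genes, 739 had a difference of -0.8 or lower at 48 h. In 614 of them the 48 h groups did not overlap, and 293 of these also met the window at 0 and 24 h. The cut at -0.8 runs through a dense range: 106 members lay within 0.1 of it, and 152 other genes that met the other criteria lay within 0.1 beyond it. Virad08G0062300, just inside at -0.80, held 3.91, 5.03 and 7.41 in the T1 48 h libraries and 9.63, 11.2 and 9.15 in the T2 48 h libraries. Virad07G0117000 and Virad10G0158400 were also just inside at -0.80. Virad04G0027300, just outside at -0.80, held 7.73, 9.56 and 11 in T1 and 16.5, 13.8 and 21.4 in T2, and Virad10G0056200 and Virad02G0005400 lay just outside as well. Members and near neighbours therefore differ little. All 293 members passed the filter on low values used for the tests, which asked for 3 or more libraries with a value of 1 or more.

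The mean log2 level of the 293 genes was 3.07, 3.19 and 3.36 in the T1 48 h libraries and 4.20, 4.29 and 4.22 in the T2 48 h libraries. At 24 h the same mean was 3.58, 3.98 and 3.84 in T1 and 3.91, 3.95 and 3.80 in T2, and at 0 h it was 3.98, 4.19 and 4.01 in T1 and 4.33, 4.07 and 4.13 in T2. The 48 h groups stand apart by the rule, and the 0 and 24 h groups overlap. On this mean, the T1 48 h libraries were the lowest of all 42, whereas the T2 48 h libraries lay within the range of the 0 h libraries. The median difference at 48 h was -0.96, with a range from -2.17 to -0.80. In 119 members it was -1 or lower (40.6%, against 1.89% of all genes tested), a share that the rule raised. Within the window of the rule, the members also tended to be lower in T1 at 0 and 24 h. The difference was above 0 in 31.7% of members at 0 h and 35.5% at 24 h, against 44.4% and 48.6% of all genes tested. Its median was -0.14 and -0.10 in the members, against -0.04 and -0.01.

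**Figure D1:**
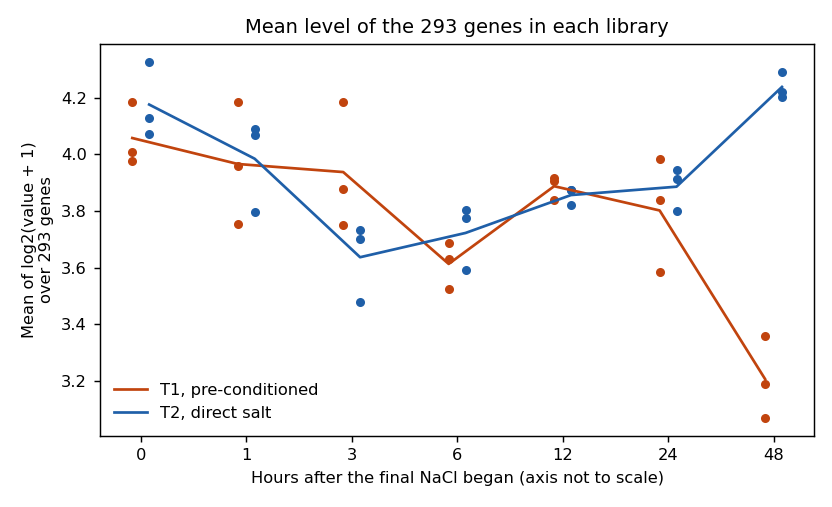
Mean of log2(value + 1) over the 293 genes (vertical axis) in each library (points) at 0 to 48 h of the final NaCl (horizontal axis, not to scale); lines join the group means of T1 (pre-conditioned) and T2 (direct salt). The T1 48 h libraries sit at 3.07 to 3.36, below all others, and the T2 48 h libraries at 4.20 to 4.29, near their 0 h level.

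The members covered a wide range of expression. Their mean deposited value at 48 h ran from 1.26 to 2420 in T2, with a median of 12.9, and its median in T1 was 5.81. In 34 members (11.6%, against 7.08% of all genes tested) the T2 48 h mean was at least 100. It was under 5 in 63 (21.5%, against 29.9%). The gap between the highest T1 and the lowest T2 library at 48 h had a median of 0.50 on the log2 scale; it was at least 0.5 in 144 members and under 0.1 in 18. T1 48 h replicate 1 was the lowest T1 library in 162 members, replicate 2 in 87 and replicate 3 in 44.

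The largest differences at 48 h among members with a T2 mean of at least 5 were of different reliability. Virad11G0072100 had values of 15.7, 31.6 and 29.7 in T1 at 48 h and of 122, 94.3 and 124 in T2, a log2 difference of -2.15 (SE 0.33, n = 3 each). Every T2 library was well above every T1 library, and at 24 h the groups had been alike, at 75.7 ± 25.3 and 74.1 ± 14.4 (SD, n = 3). Virad06G0189500 was at 0.793, 1.08 and 0.878 in T1 and at 7.65, 7.22 and 5.97 in T2 (log2 difference -2.05, SE 0.11). This gene was near the bottom of the scale at 24 h in both treatments, at 0.762 ± 0.357 in T1 and 0.365 ± 0.125 in T2, so its high level was found at 48 h in T2.

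Virad09G0056500 was at 2.96, 1.70 and 1.39 in T1 and at 15, 15.6 and 6.89 in T2 at 48 h (-2.12, SE 0.41). Virad06G0176300 was at 2.96, 8.23 and 6.08 against 25.5, 19.5 and 31.1 (-2.02, SE 0.41). Both had 24 h means under 10 in both treatments, so the T2 48 h libraries are the high ones. In Virad06G0176300 these T2 values came back to the 0 h range, 30.5 ± 20.5 in T2, after a mean of 2.47 ± 1.14 at 12 h.

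In other members of this set a single library weighed heavily. The most negative difference, -2.17 in Virad08G0419400, came from values of 20.7, 20.9 and 40.1 in T1 and of 42.8, 749 and 52.5 in T2. Replicates 1 and 3 of T2 are just above the T1 libraries, and without T2 48 h replicate 2 the difference was -0.85. The same gene was also uneven in other groups, with 5.94, 1707 and 8.45 in T1 at 0 h.

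Virad08G0046800 (0.383, 1.19 and 1.18 in T1 at 48 h, 4.47, 26.1 and 2.90 in T2) had a difference of -2.15, and -1.30 without T2 48 h replicate 2. Virad08G0401500 (2.51, 2.90 and 2.76 in T1, 7.43, 28.5 and 9.94 in T2) had -1.91, and -1.37 without that library. T2 48 h replicate 2 is the high library in both genes. In all, 7 members were at least 3 times higher in T2 48 h replicate 2 than in both other T2 48 h libraries, and 0 were so in replicate 1 or in replicate 3.

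The most abundant members had smaller differences. Virad03G0038900, the highest at 48 h in T2, had 1112, 1181 and 1590 in T1 and 2667, 1964 and 2643 in T2 (log2 difference -0.91, SE 0.22). Virad08G0387800 had 1026, 994 and 1134 in T1 and 2063, 1846 and 2172 in T2 (-0.95, SE 0.09). Its 24 h means were 2540 ± 491 in T1 and 2520 ± 112 in T2, and its 48 h means were 1050 ± 72.8 and 2030 ± 166 (SD, n = 3).

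Virad08G0322700 had 914, 926 and 1327 in T1 and 2103, 1646 and 2396 in T2 (-0.96, SE 0.24). This gene was among the most abundant of the members early on, with a mean of 12100 ± 2280 in T1 and 10900 ± 3530 in T2 at 3 h, and stood near 1000 in both at 12 h (1010 ± 248 and 814 ± 223). Virad08G0107600 (T1 48 h mean 1010 ± 180, T2 1900 ± 411), Virad03G0077900 (482 ± 41.7 and 991 ± 139) and Virad08G0437900 (473 ± 99.7 and 887 ± 57.6) had differences of -0.91, -1.03 and -0.92. In each of these abundant genes the highest T1 library was below the lowest T2 library, as the rule requires.

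A lower T1 level relative to T2 can be reached from either side, and the members divided over both. With 0.5 on the log2 scale as the limit for a change of the group mean from 24 to 48 h, 113 members (38.6%) were lower in T1 and level in T2. In 85 (29.0%) T1 was level and T2 higher, and in 15 (5.12%) T1 was lower and T2 higher. Both treatments were lower in 38 (13.0%), both were higher in 17 (5.80%), and both were level in 25 (8.53%). In the 85 and the 17, the name "lower at 48 h" holds only relative to T2, since the T1 mean was level or above its own 24 h mean. The median change from 24 to 48 h was -0.61 in T1 and 0.28 in T2, and from 0 to 48 h it was -0.85 in T1 and 0.01 in T2.

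**Figure D2:**
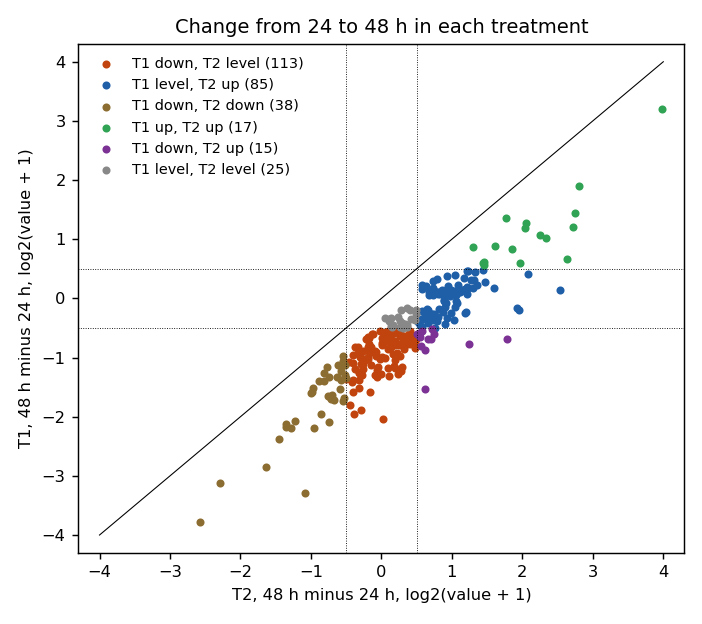
Change of the group mean of log2(value + 1) from 24 to 48 h in T2 (horizontal axis) and in T1 (vertical axis); each point is 1 of the 293 genes, coloured by class with its number, dotted lines mark the limits of 0.5 and the solid line marks equal change. All points lie below the line of equal change, and the largest classes are T1 lower with T2 level (113) and T1 level with T2 higher (85).

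Set against 0 h, the same division had 111 members lower in T1 at 48 h and level in T2, 73 lower in both, 59 level in T1 and higher in T2, 23 higher in both, 19 level in both and 8 lower in T1 and higher in T2. The T1 48 h mean was the lowest of the 7 T1 times in 140 members (47.8%, against 20% of all genes tested). The T2 48 h mean was the highest of the 7 T2 times in 85 members (29.0%, against 14.8%), and the T2 0 h mean in 83 (28.3%, against 14.6%). Since the rule used the 48 h groups, nothing is read from these shares.

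The members with the lowest T1 level at 48 h relative to 24 h were low in T2 as well. Virad08G0442200 had 98.1, 178 and 100 in T1 at 24 h and 4.45, 8.01 and 13.1 at 48 h. Its T2 values were 119, 182 and 126 at 24 h and 23.9, 17.7 and 27.1 at 48 h. Every 48 h library is thus below every 24 h library, and T1 is lower than T2.

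Virad06G0271300 stood at 14.8 ± 2.54 in T1 at 24 h and at 0.817 ± 0.381 at 48 h, and in T2 at 17.2 ± 0.99 and 2.75 ± 0.659. Virad10G0018400 had 0.198, 0.714 and 0.421 in T1 at 48 h and 0.820, 13.6 and 1.52 in T2. Its T2 mean again rests on replicate 2, and without that library the difference of -1.51 was -0.58.

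The members with the highest T2 level at 48 h relative to 24 h were high in T1 too, by less. Virad10G0178700 had 33.2, 34.6 and 33.5 in T2 at 24 h and 271, 277 and 186 at 48 h; in T1 it had 18.1, 29.3 and 32.9 at 24 h and 106, 117 and 79.1 at 48 h. Every 48 h library of either treatment is above every 24 h library. The gene had a similar high level at 12 h, 270 ± 86.1 in T1 and 159 ± 54.8 in T2.

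Virad03G0072400 had a mean of 0.484 ± 0.143 in T2 at 24 h and of 22.5 ± 1.95 a day later, beside 0.307 ± 0.233 and 11.2 ± 3.39 in T1. Virad07G0143600 was at 60.9 ± 21.7 in T2 and 26.3 ± 9.37 in T1 at 48 h, and Virad01G0135500 at 63.4 ± 25.3 and 19.0 ± 13.8. In all of these the 48 h level of T1 lay between its own 24 h level and the 48 h level of T2.

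At 1, 3, 6 and 12 h, which the rule did not use, T1 and T2 were compared by limma with Benjamini-Hochberg adjustment over 19753 genes, with an adjusted p under 0.05 as the threshold for a call. At 1 h 10 members were higher and 15 lower in T1, or 3.41% and 5.12% of members, near the 2.97% and 5.28% of all genes tested. Leaving out T2 1 h replicate 1 reduced the 25 calls to 12, and fitting only the groups compared reduced them to 6. The median difference of the members was 0.02, against -0.04 for all genes tested.

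Virad02G0135100 had the most negative difference among the called members at 1 h: 4.95, 9.83 and 8.21 in T1 and 53.8, 40.6 and 42.3 in T2 (log2 difference -2.46, SE 0.24, adjusted p = 6.24e-08). Its T2 values formed a short peak, since the mean was 2.17 ± 0.347 at 0 h and 5.52 ± 1.64 at 3 h. Every T1 library at 1 h was also above that 0 h mean, though by less than the T2 libraries. Virad02G0155300 was likewise lower in T1, at 21.8, 45.3 and 36.2 against 125, 120 and 115 (-1.83, SE 0.37, adjusted p = 0.00185). In both genes no T1 library reached the lowest T2 library.

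In the other direction at 1 h, Virad06G0139200 was at 101, 63.4 and 56.9 in T1 and at 22.0, 19.1 and 29.7 in T2 (1.58, SE 0.43, adjusted p = 0.0182). Virad06G0271300 was at 10.8, 4.05 and 4.11 against 1.33, 1.44 and 1.08 (1.56, SE 0.25, adjusted p = 0.000101). These genes were thus higher in T1 at 1 h and, as the rule requires of every member, lower in T1 at 48 h. The first call was lost without T1 1 h replicate 1 (adjusted p = 0.0939) or T2 1 h replicate 1 (0.0698), and the second when only the groups compared were fitted (0.0909).

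At 3 h the members leaned towards T1. The difference was above 0 in 231 of 293 members (78.8%, against 51.0% of all genes tested), with a median of 0.27 against 0.01. The mean log2 level of the members at 3 h was 4.18, 3.88 and 3.75 in T1 and 3.73, 3.48 and 3.70 in T2, so the groups barely miss each other and T1 3 h replicate 1 is the highest. Single genes passed the test rarely: 5 members were called higher in T1 and 0 lower, against 0.284% and 0.162% of all genes tested; at an unadjusted p under 0.05 the counts were 61 and 8, against 6.63% higher and 8.5% lower of all genes tested. The 5 calls became 0 when T1 3 h replicate 2 or T2 3 h replicate 3 was left out, or when only the compared groups were fitted. Leaving out T1 3 h replicate 1 gave 1 call, leaving out the 3 libraries high in plastid signal gave 3, and leaving out T1 3 h replicate 3 or T1 0 h replicate 2 gave 8 or 13. With every library scaled to the same total, 3 were higher and 1 lower, the median was 0.16, and that of all genes was -0.10. The shares of all genes called in these settings are not given here, so the counts show only how the calls varied.

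Virad05G0168300 had 189, 241 and 213 in T1 and 85.2, 110 and 61.6 in T2 at 3 h (log2 difference 1.34, SE 0.25, adjusted p = 0.0159). At 48 h the order was the opposite, 31.2, 54.8 and 43.4 in T1 and 166, 113 and 160 in T2. Virad04G0044600 had 36.7, 26.6 and 13.2 in T1 and 7.03, 7.48 and 7.23 in T2 at 3 h (1.57, SE 0.32, adjusted p = 0.0267), and 7.50, 10.2 and 15.5 against 25.6, 25.0 and 24.5 at 48 h. In both genes T1 was above T2 without overlap at 3 h, and below it without overlap at 48 h as the rule requires. Adjusted p in the settings that lost the call ran from 0.0806 to 0.227 for the first gene and from 0.0524 to 0.273 for the second.

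The other called members at 3 h, named after their values were seen, were Virad06G0100500 (1.09, SE 0.23, adjusted p = 0.0337), Virad08G0324600 (1.02, SE 0.23, adjusted p = 0.0351) and Virad10G0156200 (0.86, SE 0.19, adjusted p = 0.0361). Virad06G0100500 held 9.41, 7.93 and 5.51 in T1 and 3.28, 2.91 and 2.78 in T2 at 3 h, without overlap.

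At 6 h limma called 0 members, against 0.0405% higher and 0.0152% lower among all genes tested. At an unadjusted p under 0.05, 3 were higher and 24 lower in T1, against 6.31% and 6.05% of all genes tested, and no tool for counts was run, since the table holds no counts. The median of the members was -0.09 and that of all genes 0.01. The difference was above 0 in 104 members (35.5%, against 51.3% of all genes tested). The members thus leaned towards T1 at 3 h and slightly towards T2 at 6 h. At 12 h 3 members were higher in T1 and 0 lower, against 0.491% and 0.344% of all genes, and the count was 1 without the 3 libraries high in plastid signal. At an unadjusted p under 0.05 the 12 h counts were 20 higher and 7 lower, against 5.18% and 4.13% of all genes tested.

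Virad01G0153200 had 4.27, 8.55 and 13.4 in T1 and 2.55, 1.79 and 1.80 in T2 at 12 h (1.57, SE 0.25, adjusted p = 0.00112, or 0.131 with only the groups compared). Virad10G0126800 had 2.49, 2.15 and 2.36 against 0.588, 0.668 and 0.475 (1.08, SE 0.24, adjusted p = 0.0203). The second call was lost when any 1 of the 12 h libraries was left out, with adjusted p from 0.057 to 0.132. Virad07G0096600, named after its values were seen, had 8.48, 10.4 and 12.8 against 4.28, 5.73 and 3.67 (1.05, SE 0.23, adjusted p = 0.0149). All these genes were higher in T1 at 12 h, while the lower T1 level at 48 h is what the rule asked of every member.

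**Figure D3:**
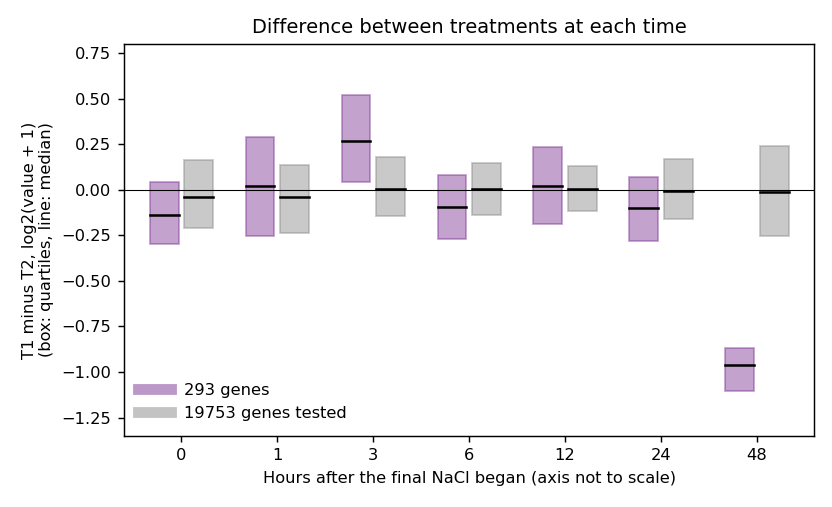
T1 minus T2 difference of log2(value + 1) (vertical axis) at each time of the final NaCl (horizontal axis, not to scale) for the 293 genes and for the 19753 genes tested; boxes span the quartiles and the line is the median. The members' median is 0.27 at 3 h and -0.96 at 48 h, where the rule fixed it, and between -0.14 and 0.02 at the other times.

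Genes that met the mirrored rule (0.8 or more higher in T1 at 48 h, with the other criteria turned round) numbered 432. At 1, 3 and 6 h their median T1 minus T2 difference was -0.22, -0.09 and 0.14, against 0.02, 0.27 and -0.09 in the 293. The lean at 3 and 6 h thus had opposite signs in these gene groups. All of these comparisons use the same libraries, and the difference between the gene groups was not tested.

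How the members moved from 0 h was asked by averaging T1 and T2 at each time and comparing this with the average at 0 h. Such a change joins salt with plant age and, at 1 to 12 h, with the hour of the day. These comparisons use the 0 and 24 h libraries that also entered the rule. The rule used differences of the treatments and the comparisons use their sums, but these are independent only where T1 and T2 libraries spread alike, and at 0 h the T1 libraries were less alike than the T2 libraries. The counts are therefore set beside those of all genes as a description. At 1 h 79 (27.0%) were lower and 30 (10.2%) higher, against 13.5% and 17% of all genes tested. At 3 h 115 (39.2%) were lower and 26 (8.87%) higher, against 18% and 20.4%. At 24 h 106 (36.2%) were lower and 34 (11.6%) higher, against 17.1% and 20.4%.

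At 6 h 134 members (45.7%) were lower and 39 (13.3%) higher, against 25.4% and 27.4% of all genes tested, and at 12 h 119 (40.6%) were lower and 83 (28.3%) higher, against 28.3% and 29.1%. The median change of the members was -0.14, -0.30, -0.39, -0.16 and -0.27 at 1, 3, 6, 12 and 24 h, and that of all genes lay between 0.00 and 0.01. The split depended on scaling at 6 and 12 h. With every library scaled to the same total, the share of called members that were higher went from 22.5% to 36.0% at 6 h and from 41.1% to 61.2% at 12 h. At 12 h the direction then turned, with 128 members higher (43.7%) and 81 lower (27.6%), against 62.7% and 11.7% of all genes tested under that scaling, while the median of the members was 0.25 and that of all genes 0.43. At 6 h 58 members were then higher (19.8%) and 103 lower (35.2%), against 48.6% and 15.1%. Under that scaling the all-gene median at 6 h was 0.25 and the members' median -0.13, so the members were below the median of all genes at both times. Without T1 0 h replicate 2 the lower and higher counts were 76 and 27, 109 and 27, 137 and 42, 113 and 87, and 95 and 35 at the 5 times. The shares of all genes without that library are not given here, so these counts have no baseline of their own.

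**Figure D4:**
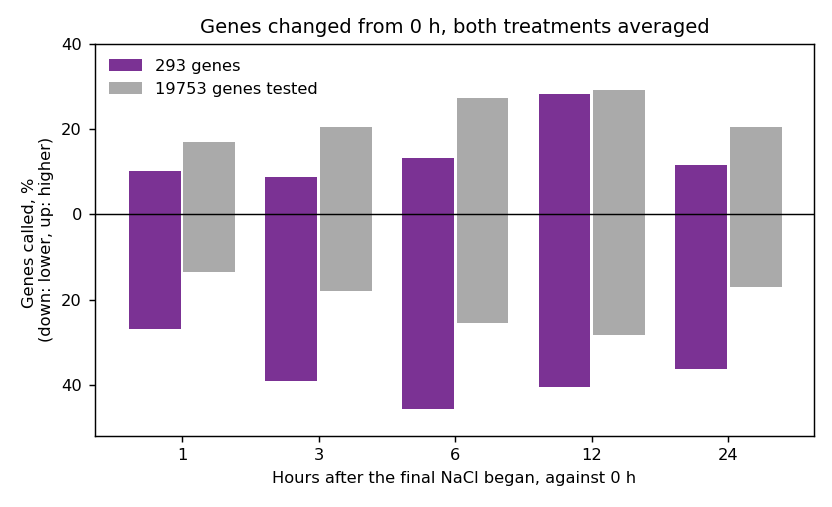
Share of genes called by limma (adjusted p under 0.05) as higher (upward bars) or lower (downward bars) than at 0 h, with T1 and T2 averaged, at 1 to 24 h; purple bars are the 293 genes and grey bars the 19753 genes tested, and both directions start at 0. The share lower is larger in the 293 than in all genes at each time, for example 45.7% against 25.4% at 6 h.

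Over the 5 times, 203 members (69.3%, against 47.9% of all genes tested) were called lower than 0 h at 1 or more. At all 5 times 24 members were lower (8.19%, against 2.88%), and at 3, 6 and 24 h together 53 were (18.1%, against 6.03%). Higher calls were made at 1 or more times in 114 members (38.9%, against 54.2%) and at all 5 in 3 (1.02%, against 2.42%), and 26 members (8.87%, against 14.4%) were called at no time. The calls are given next by the course from 24 to 48 h, beside 18% lower and 20.4% higher at 3 h among all genes tested. They were not worked out for other genes with the same courses, so nothing is read from the contrast between courses. Of the 38 members that were lower in both treatments at 48 h, 24 were called lower at 3 h and 0 higher. Of the 113 with T1 lower and T2 level, 57 were lower and 5 higher at 3 h. Of the 85 with T1 level and T2 higher, 18 were lower and 11 higher at 3 h, and of the 17 higher in both, 1 was lower and 6 higher.

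Virad01G0020400 was the member with the largest fall, at 12 h. It held 0.709, 0.729 and 0.804 in T1 and 1.09, 1.11 and 0.874 in T2 at 12 h, against 83.1 ± 14.8 and 89.5 ± 5.50 at 0 h (log2 change -5.53, SE 0.15, adjusted p = 3.27e-23). By 24 h it stood at 40.9 ± 4.20 in T1 and 46.3 ± 9.70 in T2, so the low level was reached and left in both treatments. It was then still lower than at 0 h (log2 change -0.98, SE 0.15, adjusted p = 8.79e-06). Virad06G0139200 fell at 12 h as well, by 4.95 on the log2 scale (SE 0.30, adjusted p = 3.7e-15).

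Virad04G0099200 had the largest rise. It held 168, 177 and 174 in T1 and 139, 135 and 137 in T2 at 12 h, against 2.38 ± 0.83 and 2.47 ± 0.506 at 0 h (log2 change 5.52, SE 0.28, adjusted p = 4.11e-17). The replicates were close at 12 h, and at 24 h both treatments were under 10 on average. The gene was then still higher than at 0 h (log2 change 1.17, SE 0.28, adjusted p = 0.00132). The rise had begun by 6 h (3.35, SE 0.28, adjusted p = 1.28e-11). Virad06G0109400 rose at 12 h by 4.75 (SE 0.20, adjusted p = 9.22e-19) and Virad01G0045500 at 6 h by 3.21 (SE 0.28, adjusted p = 4.28e-11), and both were also low again at 24 h.

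Some members were already lower at 1, 3 or 6 h. Virad08G0115600 had the largest called fall at 1 h (log2 change -2.61, SE 0.29, adjusted p = 1.77e-08). Virad08G0115600 went from 46.9 ± 19.2 in T1 and 55.9 ± 8.39 in T2 at 0 h to 5.77, 5.28 and 4.51 in T1 and 7.61, 1.51 and 3.78 in T2 at 3 h (log2 change -3.23, SE 0.29, adjusted p = 3.15e-10). Its largest fall was at 12 h (-4.08, adjusted p = 1.27e-13), and it was also lower at 24 h (-2.18, adjusted p = 7.02e-07). Virad01G0191800 was also lower at 1 h (log2 change -1.75, SE 0.28, adjusted p = 1.38e-05). It fell by 3.03 at 3 h (SE 0.28, adjusted p = 8.09e-10), by 3.27 at 6 h and by 2.39 at 24 h. Virad10G0223500 fell from 50.7 ± 9.58 and 42.7 ± 11.5 to 2.95 ± 1.51 and 2.86 ± 1.57 at 6 h (-3.66, SE 0.23, adjusted p = 3.11e-14), with T1 and T2 alike.

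Sustained rises were fewer. Virad05G0057100 was called higher at all 5 times: its mean was 1.29 ± 0.394 in T1 and 1.49 ± 0.0896 in T2 at 0 h, and at 3 h it held 9.70, 7.02 and 9.46 in T1 and 8.65, 11.5 and 12.9 in T2 (log2 change 2.17, SE 0.14, adjusted p = 5.13e-13). At 48 h it was high in both treatments, 18.4, 13.3 and 14.7 in T1 and 28.1, 30.1 and 31.7 in T2, so a member of this set can be far above its 0 h level. Virad08G0294200, also higher at all 5 times, rose by 1.68 at 3 h (SE 0.19, adjusted p = 2.95e-08), and Virad11G0036600 rose by 1.63 at 24 h (SE 0.23, adjusted p = 2.28e-06).

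**Figure D5:**
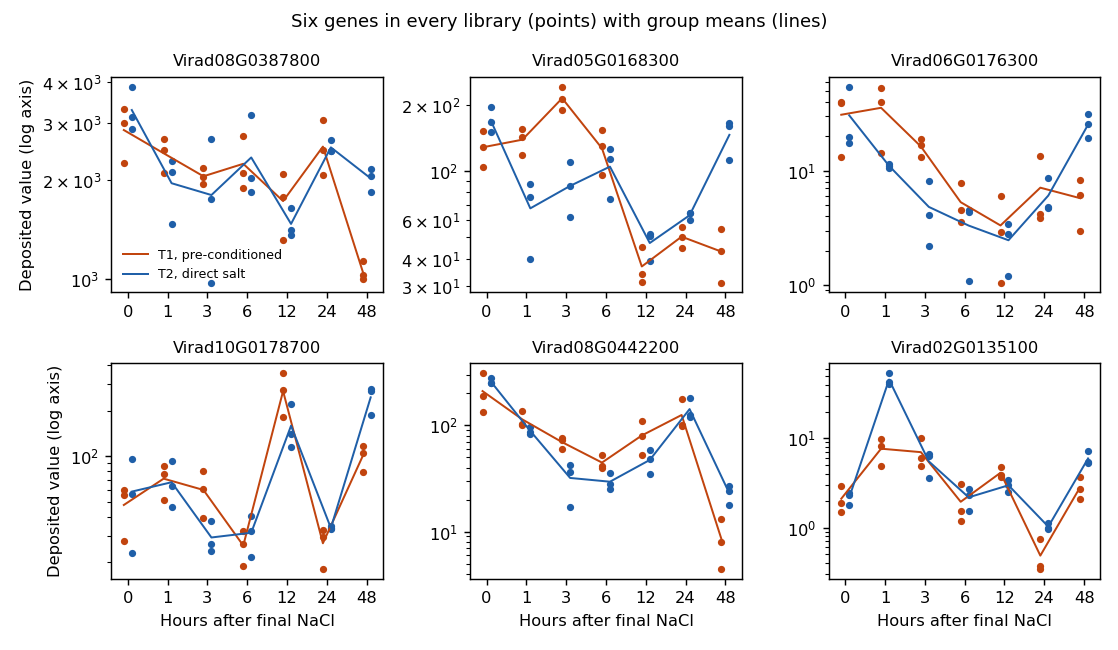
Deposited value (vertical axes, logarithmic) of 6 members in every library (points) at 0 to 48 h of the final NaCl (horizontal axes, not to scale), with lines through the group means of T1 and T2. In each gene the T1 48 h libraries lie below the T2 48 h libraries, as the rule requires, while the courses before differ: Virad02G0135100 peaks at 1 h in T2, Virad05G0168300 is higher in T1 at 3 h and Virad10G0178700 is high at 12 h.

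The members had partly alike courses at the times the rule did not use. Over the 24 libraries at 1, 3, 6 and 12 h, each member was correlated with the mean standardised profile of the other members. The median r was 0.34, with quartiles of 0.07 and 0.53, and r was above 0 in 81.2% of members. For the other genes tested the median r with the members' mean profile was 0.01, and 50.7% were above 0. The profiles share libraries and their depth, so these values are descriptions. The genes most like the rest were Virad04G0049100 (r = 0.77), Virad09G0017100 (0.76) and Virad10G0009200 (0.75).

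Virad09G0017100 had close replicates but was not level over time. With T1 and T2 averaged, limma called it lower than 0 h at every time tested (log2 change -1.43 at 6 h, SE 0.10, adjusted p = 5.95e-13). At 48 h it held 10.5, 9.37 and 10.9 in T1 and 20, 18 and 21.5 in T2. Its 24 h values were 14.2, 15.1 and 15.1 in T1 and 15.7, 15.2 and 14.5 in T2. The 24 h groups overlap within 2 units, and the 48 h libraries lie on either side of them. At the other end, Virad06G0271300 had an r of -0.65, so the set does not form 1 course.

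By the prefix of their IDs, 51 members were in Virad08G (17.4% of members and 16.4% of genes tested), 26 in Virad09G (8.87% and 5.85%) and 14 in Virad11G (4.78% and 8.0%), and no test of these shares was run. There were 14 pairs of members with IDs next to each other in the table, which hold 27 members (9.22%). Their correlation over the 24 libraries ran from -0.40 to 0.99 with a median of 0.52, and 5 pairs shared the course from 24 to 48 h. None of these values was worked out for other pairs of genes, so nothing is read from them or from the number of pairs. Whether reads could be shared between near-identical copies is unknown, since the sources used here do not say, so values of neighbours with almost equal courses are uncertain.

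Virad07G0165200 and Virad07G0165300 were the most alike (r = 0.99). The first held 42.7, 26.2 and 25.3 in T1 and 73.1, 62.6 and 49.2 in T2 at 48 h, and the second 57.7, 39.4 and 32.2 against 104, 88.5 and 63.9. The order of the replicates is the same in both genes. Virad09G0145600 and Virad09G0145700 followed (r = 0.97), at 4.06 ± 1.24 in T1 and 12.1 ± 1.04 in T2, and at 0.917 ± 0.39 and 3.11 ± 0.569.

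Virad04G0269400 and Virad04G0269500 (r = 0.82) both had T1 lower and T2 level from 24 to 48 h, at 8.96 ± 1.24 and 18.7 ± 2.98 and at 4.76 ± 1.27 and 9.36 ± 0.746. Virad06G0176200, next to Virad06G0176300 (r = 0.69), was close to 0 in T1 at 48 h (0.099, 0.079 and 0) and at 1.32, 1.2 and 1.69 in T2. Virad10G0216300 was abundant, at 361, 327 and 384 in T1 and 701, 632 and 839 in T2, beside the less abundant Virad10G0216200 at 17.5 ± 2.85 and 36.5 ± 3.35 (r = 0.47). Virad03G0293700, at 372 ± 155 and 733 ± 76.2, and Virad03G0293800, at 1.31 ± 0.252 and 4.14 ± 0.431, were neighbours with little likeness (r = 0.12). The other neighbours ranged from Virad03G0224000 and Virad03G0224100 (r = -0.40) to Virad01G0232300 and Virad01G0232400 (r = 0.66).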

How the data were processed

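RNA of mung bean leaves was enriched for poly(A) and sequenced on the DNBSEQ platform, per the labels' protocols. The submitters' processing notes name fastp 1.0.1, HISAT2 2.2.1 (genome build not given in the sources used here), featureCounts (no version) and DESeq2 1.48.2. The deposited signal values, 1 per gene and library and called TPM by the authors, sum to 783218 to 1228250 per library with a geometric mean of 1000000, so a scaling between libraries that the sources do not describe was applied. TPM had been assumed when the tests were planned; the same tests were kept. Absolute depth is unknown, and no counting interval is given. Of 4173 low values in 1256 genes, 97.4% fell on whole steps (within 0.1 of a step) when each library was given a factor, and 20.2% did when none was given.

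Deposited values were compared as log2(value + 1), which understates changes of low genes. limma 3.58.1 in R 4.3.3 was fitted to 14 group means with a robust variance trend. It used the 19753 genes (68.7%) that reached a value of 1 in 3 or more libraries, and two-sided p-values were adjusted by Benjamini-Hochberg within a contrast. Between 3 and 3 libraries a permutation test of a single gene cannot go below p = 0.1 (10 splits). The labels do not say whether replicates are single plants or pools, so p-values reflect the spread of these libraries, which may be technical. The fit was tested on simulated data. Descriptions and figures used Python 3.11.15, numpy 2.4.6, pandas 2.3.3 and matplotlib 3.10.9.

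The members, tests and naming rule were chosen with earlier results of these data known. Genes were named if they had the 8 largest differences at 48 h, the 6 highest T2 levels, or the 4 largest changes from 24 to 48 h in each treatment. Also named were the 2 largest called changes each way in each tested contrast, the 3 on each side of the -0.8 limit, the 3 most like the others, and members with neighbouring IDs. A mean of at least 5 was asked of the first, the changes from 24 to 48 h and the genes at the limit. No ID matched the reference list (assembly Vradiata_ver6, 0 matches), so no gene list was run. Alternatives were pseudocounts of 0.1 and 0.5, other filters, median-of-ratios and same-total scaling, a replicate block, only the groups compared, and each library left out. Other limits of the rule were tried too. Leaving out 3 libraries high in plastid signal, and T1 0 h replicate 2 in comparisons that do not hold it, was added after the data were seen.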

Additional observations from a re-analysis of the deposited data

How the results depend on the processing

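The number of genes that met the rule was 493 with a pseudocount of 0.1, of which 249 were among the 293. It was 119 with a 48 h limit of -1 and 156 with a window of -0.3 to 0.3. With 1 library left out it ran from 223 (without T1 0 h replicate 2) to 418 (without T1 48 h replicate 3). With only the groups compared in the fit, T1 against T2 called 6 members at 1 h and 0 at 3 h. Without the 3 libraries high in plastid signal it called 3 at 3 h and 1 at 12 h. With 1 library left out the calls ran from 12 to 32 at 1 h, 0 to 13 at 3 h, 0 to 1 at 6 h and 1 to 4 at 12 h. For both treatments against 0 h they ran from 92 to 117, 122 to 143, 163 to 179, 187 to 203 and 117 to 141 at 1, 3, 6, 12 and 24 h. Shares of all genes in other settings are given only for same-total scaling at 6 and 12 h, so the other counts lack that baseline. Leaving out a library also leaves fewer libraries in its group; beyond that, the cause was not tested. The other planned settings kept each total of calls within 1.5 times, but not each direction: with every library scaled to the same total, the higher calls at 12 h against 0 h went from 83 to 128 and the lower from 119 to 81, and those of T1 against T2 at 3 h from 5 and 0 to 3 and 1. Of 690 values of named genes at 48 h, 25 moved by more than the replicate spread, all with another pseudocount, and 0 reversed. That spread includes the library left out, so an outlying library widens the limit it is held against. The count therefore cannot show that no single library mattered. The shifts of Virad08G0419400 and Virad10G0018400 without T2 48 h replicate 2, given above, were not among the 25. Of 547 test values, 19 lost the call and 0 reversed.

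The libraries were treated as unpaired. Over 21 same-numbered pairs the correlation of deviations from the group mean ran from -0.45 to 0.55, and 4 pairs were over 0.1. The highest were replicates 2 and 3 at 6 h, with 0.46 and 0.55, where replicate 1 had 0.01. Deviations within a group sum to 0, so these values depend on each other. Whether T1 and T2 libraries were paired at 6 h was not tested. With the replicate block T1 against T2 called 26, 6, 0 and 3 members at 1, 3, 6 and 12 h. Both treatments against 0 h then called 109, 140, 173, 200 and 137, so the block moved no count by over 1.5 times.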
